A study of Danio rerio with 8 samples.

Results

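Voltage-gated ion channel genes were examined in hearts of zfpm1 mutant zebrafish and of control zebrafish at 21 days post fertilisation (dpf). A gene was taken as a member when its zebrafish gene symbol, in capitals or not, began with KCN, CACN, HCN or SCN followed by a digit, and when its reads over the 6 heart libraries summed to at least 10. Of 31953 gene identifiers in the heart files, 193 carried such a symbol and 118 reached the minimum. These were 70 potassium, 32 calcium, 12 sodium and 4 pacemaker (HCN) channel genes. The symbol takes in auxiliary subunits and potassium channels that are not gated by voltage, such as inward rectifiers, leak channels and calcium-activated channels. Just inside the minimum, 8 members had 10 or 11 reads in all, among them KCND2 and KCNA4 with 11 each. Just outside it, 10 genes had 8 or 9 reads, among them KCNK3 and CACNA1H with 8 each. The remaining symbols below the minimum were also lowly covered, and 22 of the 75 genes left out had no read.

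The tested fish were labelled as zfpm1 mutants and the others as controls, all of the TU strain, and each genotype was represented by 3 heart libraries numbered 1 to 3. The labels name no allele, and do not say how many hearts entered a library or whether the libraries came from separate animals, so the p-values rest on how far these libraries differ within a genotype, which can be technical. Polyadenylated RNA of whole hearts was sequenced, and the deposited values are read counts per gene. The series also holds 1 library of each genotype labelled as whole embryos at 36 hours post fertilisation (hpf).

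Voltage-gated channels open a pore for 1 kind of ion when the membrane potential changes, and their currents form the cardiac action potential. In working heart muscle sodium and calcium currents depolarise the cell, calcium entry through L-type channels triggers contraction, and delayed rectifier potassium currents end the action potential. HCN channels carry the inward current that drives spontaneous depolarisation in pacemaker cells. Auxiliary subunits alter the traffic and gating of the pore-forming subunits.

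The heart libraries held between 7614329 and 9909966 reads assigned to genes. Channel genes took a small share of them, 0.113%, 0.100% and 0.129% in mutant libraries 1 to 3, and 0.128%, 0.0641% and 0.100% in control libraries 1 to 3. The lowest share was that of control 2. The targeted gene zfpm1 had 62.2, 52.8 and 91.8 CPM (counts scaled to library size by TMM) in mutants and 51.1, 42.3 and 53.2 CPM in controls. Its difference was 0.50 on the log2 scale (standard error 0.23) and did not pass the test (edgeR adjusted p = 0.241), so its RNA level does not check the genotype labels. The tissue label was checked against heart muscle markers, whose summed level was 34757 to 59754 CPM in mutants and 73371 to 91326 CPM in controls. Of 20 such markers tested, 1 passed, the actin gene ACTC1, which was lower (edgeR adjusted p under 0.05), beside 2.42% of all genes tested. In 10 of the 20 all mutant libraries lay below all control libraries, beside 12.9% of all genes tested.

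The 2 libraries labelled as embryos were not used as further samples. The file of the mutant embryo and that of heart control 1 had the same total over all lines, 22649056, and the file of the control embryo and that of heart mutant 1 had the same total, 19276348. Among channel genes with 50 or more reads in the embryo file, the ratio of heart to embryo reads had a median of 0.507 over 34 genes for mutant heart 1 and 0.506 over 31 genes for control heart 1. The medians over all such genes were 0.503 and 0.504. Over these channel genes the ratio ranged from 0.338 to 0.754 for mutant heart 1 and from 0.391 to 0.633 for control heart 1. Read numbers of these pairs therefore ran in parallel over these channel genes within that range, across labels of different tissue and opposite genotype. Since this touches mutant heart 1 and control heart 1, results are also given without both.

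Among the 118 channel genes, 54 had enough reads to be tested, and 6 of these differed between mutant and control hearts at an adjusted p under 0.05 (edgeR quasi-likelihood test, adjusted over all 16707 genes tested). This share of 11.1% stood beside 9.43% of all genes tested. The potassium channel genes KCNH4, KCNK5 and KCNE4 were higher in mutants, against a background of 7.02% of all genes higher. The calcium channel genes CACNB1 and CACNA1S and the potassium channel gene kcnn4 were lower, against 2.42% of all genes lower. The median log2 fold change over the 54 tested channel genes was 0.07, and that over all genes was -0.01. Genes with a low level passed the read filter partly through the group where they were higher, so these counts describe the tested genes and not all 118. Without both libraries numbered 1, edgeR called KCNH4 (log2 fold change 3.25, adjusted p = 0.0148) and SCN3B. The changes of the other 5 were then 2.18 for KCNK5, 0.75 for KCNE4, -2.20 for kcnn4, -0.97 for CACNB1 and -0.86 for CACNA1S, with edgeR adjusted p of 0.0808 to 0.241.

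By class, 4 of 30 tested potassium channel genes passed (13.3%, 3 higher and 1 lower), with a median log2 fold change of 0.11. Of 15 tested calcium channel genes 2 passed (13.3%), both lower, and the median over the 15 was -0.15. Of all genes tested 9.43% passed, 7.02% higher and 2.42% lower. An unadjusted p under 0.05 in edgeR was found for 3948 of the 16707 genes tested, 2422 of them higher and 1526 lower. None of the 7 tested sodium channel genes passed (edgeR, and none by DESeq2), with a median of 0.07 and no unadjusted p under 0.05 in edgeR and 1 in DESeq2. Neither of the 2 tested pacemaker genes passed (edgeR, and none by DESeq2), and neither had an unadjusted p under 0.05 in either tool. In 12 of the 54 genes the mutant and control libraries did not overlap, 8 with mutants higher and 4 with mutants lower. Among all genes tested 16.8% had mutants higher and 12.9% had mutants lower without overlap, or 29.7% in either direction.

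Summed by class, potassium channel genes reached 495, 501 and 647 CPM in mutants and 528, 438 and 480 CPM in controls. Calcium channel genes summed to 278, 279 and 382 CPM in mutants and to 548, 203 and 372 CPM in controls. Sodium channel genes summed to 126, 122 and 141 CPM in mutants and to 235, 70.3 and 138 CPM in controls. These 3 sums overlapped between genotypes, and controls 1 and 2 lay at the 2 ends of the calcium and sodium sums. Pacemaker genes summed to 63.8, 49.9 and 57.6 CPM in mutants and to 52.3, 47.9 and 41.4 CPM in controls, which also overlapped. Single genes made up much of each sum, with kcnh6a at 64.4% of potassium channel reads, CACNA1C at 31.8% of calcium, SCN4B at 39.4% of sodium and hcn2b at 94.1% of pacemaker channel reads. Such shares are of reads and are not corrected for gene length.

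Among the EAG, ERG and ELK family of potassium channels, 4 of 5 members were tested and 1 passed. KCNH4 (ENSDARG00000061990) encodes a voltage-gated channel of the ELK group, known in mammals mainly from brain. It had 8.81, 5.27 and 7.78 CPM in mutants (79, 47 and 81 reads) and 0.610, 0.983 and 0.377 CPM in controls (5, 8 and 3 reads). Every mutant library lay above every control library, and the lowest mutant exceeded the highest control several fold. With so few control reads, the gene passed the read filter through the mutants. The gene averaged 7.29 ± 1.82 CPM in mutants and 0.657 ± 0.306 CPM in controls (SD, n = 3 each), and rose by 3.44 on the log2 scale (standard error 0.49, 95% interval 2.34 to 4.54, edgeR adjusted p = 0.00346). It passed under every alternative setting run and without any single library, with adjusted p up to 0.0244. A second gene listed under the same symbol (ENSDARG00000062565) had 3.68, 4.60 and 4.70 CPM in mutants and 4.51, 4.06 and 5.66 CPM in controls. Its levels overlapped, with a log2 fold change of -0.13 (95% interval -0.91 to 0.65, edgeR adjusted p = 0.872).

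The ERG channel gene kcnh6a (ENSDARG00000001803), which carries the rapid delayed rectifier current of the zebrafish heart, had by far the most reads of all channel genes. Its level was 282, 323 and 452 CPM in mutants and 325, 302 and 307 CPM in controls. Mutant 1 lay below, mutant 2 within and mutant 3 above the control range. The difference was 0.18 on the log2 scale (standard error 0.22, 95% interval -0.33 to 0.68, edgeR adjusted p = 0.697). The interval stays within a 2-fold difference either way. The related kcnh7 had a log2 fold change of -0.75 with a wide interval of -2.14 to 0.65.

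The Kv family, the classical voltage-gated pore-forming subunits with their silent partners, had 22 members, of which 9 were tested and none passed (edgeR, with 1 unadjusted p under 0.05, while DESeq2 called KCNQ5). The gene kcnq1.1 encodes the pore of the slow delayed rectifier. It had 12.9, 12.8 and 20.8 CPM in mutants and 18.9, 14.7 and 10.7 CPM in controls, which overlapped throughout (log2 fold change 0.07, 95% interval -0.60 to 0.75, edgeR adjusted p = 0.923). KCNQ5 (ENSDARG00000069953), a channel of the M-type current in mammalian neurons, had 2.57, 7.52 and 4.61 CPM in mutants and 1.22, 2.09 and 1.01 CPM in controls. Its mutant libraries all lay above the controls, and the log2 fold change of 1.76 (standard error 0.54) missed the threshold with edgeR (adjusted p = 0.0798) but not with DESeq2 (adjusted p = 0.0307). A second KCNQ5 gene, kcnq5a, had 10.7, 10.1 and 7.97 CPM in mutants and 10.2, 6.39 and 9.68 CPM in controls (log2 fold change 0.13). The silent subunit gene KCNG4 had 2.12, 1.23 and 1.54 CPM in mutants and 0.975, 0.983 and 0.880 CPM in controls. These did not overlap, but the difference did not pass (log2 fold change 0.77, edgeR adjusted p = 0.402). KCNG4 and the first KCNQ5 gene passed the read filter mainly through the mutants. KCNC2, a fast-repolarising channel of mammalian neurons, had 5.91, 10.1 and 9.79 CPM in mutants and 9.997, 14.3 and 10.9 CPM in controls (log2 fold change -0.45).

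**Figure D1:**
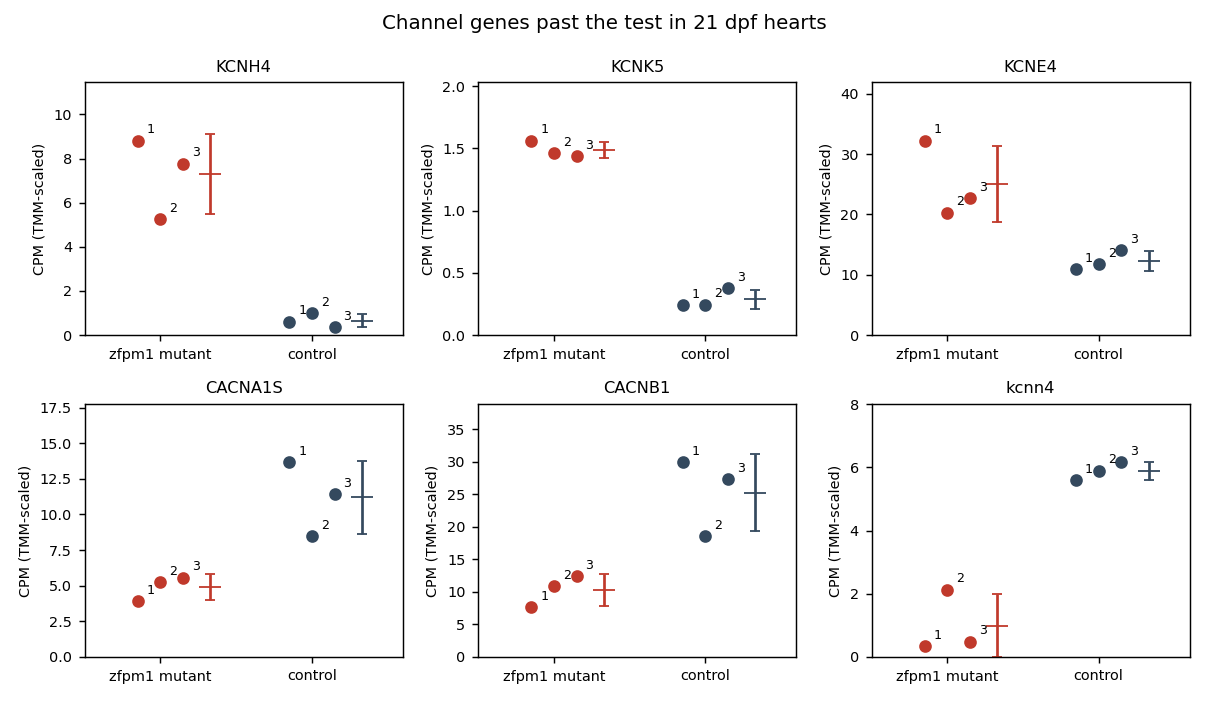
Level in CPM (TMM-scaled) of the 6 channel genes that passed the test, with mutant libraries left and control libraries right, 1 point per library labelled by its number, and the mean with its SD beside them. Mutant and control libraries do not overlap in any of the 6, and kcnn4 in mutant 2 stands at 2.13 CPM, above the other mutants.

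KCNE4 (ENSDARG00000068257) encodes a small single-pass subunit known in mammalian cells to inhibit KCNQ1 channels. It had 32.2, 20.3 and 22.8 CPM in mutants and 10.97, 11.8 and 14.1 CPM in controls. All mutants exceeded all controls, with mutant 1 highest. KCNE4 rose by 1.03 on the log2 scale (standard error 0.24, 95% interval 0.48 to 1.58, edgeR adjusted p = 0.0325), with means of 25.1 ± 6.30 CPM in mutants and 12.3 ± 1.61 CPM in controls (SD, n = 3 each). The call was kept without mutant 2 and lost without any 1 of the other 5 libraries (adjusted p up to 0.0941). KCNE4 was the only auxiliary potassium channel subunit called among the 4 tested of 10. The cytoplasmic beta subunit gene KCNAB2 had 12.4, 6.51 and 8.26 CPM in mutants and 9.39, 2.95 and 4.40 CPM in controls (log2 fold change 0.69, edgeR adjusted p = 0.408).

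Leak channels of the KCNK family set the resting potential of many cells. All 5 tested of 7 members had a positive log2 fold change, with a median of 1.09, beside 8247 of all 16707 genes tested. Members with few control reads, such as both KCNK5 genes below, passed the read filter through the mutants, so the filter partly fixes this run of signs. Only 1 of the 5 passed the test. KCNK5 encodes a leak channel that is opened by alkaline medium and is known from epithelia in mammals, and was listed for a pair of genes. The first (ENSDARG00000012390) had 14, 13 and 15 reads in mutants and 2, 2 and 3 reads in controls. This is 1.56, 1.46 and 1.44 CPM in mutants and 0.244, 0.246 and 0.377 CPM in controls, without overlap. It rose by 2.31 on the log2 scale (standard error 0.59, 95% interval 0.98 to 3.64, edgeR adjusted p = 0.0410), but missed the threshold with DESeq2 (adjusted p = 0.0714) and whichever library was left out (adjusted p 0.113 to 0.143). The second (ENSDARG00000023587) had 2.34, 3.59 and 2.496 CPM in mutants and 1.097, 0.738 and 0.754 CPM in controls. Again no library overlapped, and the log2 fold change of 1.68 (standard error 0.49) did not pass with edgeR (adjusted p = 0.0668). The other 3 tested leak channels overlapped between genotypes, at log2 fold changes of 1.09 for kcnk4a, 0.96 for kcnk1a and 0.11 for KCNK6. Markers of epithelium, the tissue KCNK5 is known from, summed to 3218, 4110.4 and 3484 CPM in mutants and 2191, 4783 and 3363 CPM in controls, which overlapped. Of 8 tested, 6 had a positive log2 fold change and 2, krt4 and krt5, a negative one, with a median of 1.25. Of the 8, 1 was higher at an adjusted p under 0.05 (edgeR), beside 7.02% of all genes tested. The part of epithelium in the KCNK5 values was not tested.

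Markers of further cell types are given here beside KCNH4, KCNE4 and KCNK5 and the partner genes described at the end. Of all genes tested, 7.02% were called higher and 2.42% lower (edgeR). Liver markers summed to 5145, 3583 and 2722 CPM in mutants and 149.8, 132 and 135 CPM in controls, and 12 of 12 tested were higher (edgeR, median log2 fold change 5.90). White blood cell markers summed to 715, 739 and 747 CPM in mutants and 139, 229.8 and 145 CPM in controls, with 10 of 10 tested higher (median 1.98). Smooth muscle markers, beside KCNJ8 below, summed to 1685, 714 and 764 CPM in mutants and 1134, 590.4 and 826 CPM in controls, with 2 of 9 tested higher and 1 lower. Endocrine islet markers summed to 51.6, 32.1 and 15.9 CPM in mutants and 2.80, 9.71 and 9.30 CPM in controls. Of 15 listed only 4 were tested, with 2 higher (median 3.02), gcga and MNX1, which passed the read filter through the mutants. MNX1 had 162, 25 and 18 reads in mutants and none in controls. The hormone genes ins and SST had no read in mutants, and 0, 1 and 0 and 0, 1 and 1 reads in controls. The hormone gene sst2 had 2, 5 and 7 reads in mutants and none in controls. Vessel lining (endothelial) markers went the other way, summing to 1090.1, 1151 and 1397 CPM in mutants and 1859, 1516 and 1584 CPM in controls. All 8 tested had a negative log2 fold change (median -0.34), none passed (edgeR) and 3 had an unadjusted p under 0.05. Over all 16707 genes tested, 3948 had an unadjusted p under 0.05 in edgeR, 2422 of them higher and 1526 lower. Epicardium and fibroblast markers summed to 3403, 2404 and 2877 CPM in mutants and 1918, 2766 and 2228 CPM in controls. Of 12 tested, 9 had a positive and 3 a negative log2 fold change (median 0.48). In edgeR 1 was lower at an adjusted p under 0.05, none was called higher, and 5 were higher at an unadjusted p under 0.05. Of these sums, only those of smooth muscle and of epicardium and fibroblast overlapped between genotypes. The part of these cells in the channel gene values was not tested.

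Calcium- or sodium-activated potassium channels had 4 of 6 members tested. The gene kcnn4 (ENSDARG00000086091) encodes the intermediate-conductance channel known as the Gardos channel of human red blood cells. It had 3, 19 and 5 reads in mutants and 46, 48 and 49 reads in controls, or 0.335, 2.13 and 0.480 CPM in mutants and 5.61, 5.90 and 6.16 CPM in controls. The controls were nearly equal, and each mutant lay below them. The read filter was passed mainly through the controls. The gene fell by 2.58 on the log2 scale (standard error 0.64, 95% interval of the change -4.04 to -1.12, edgeR adjusted p = 0.0383). Without mutant 2, the highest of the mutants, the change was -3.79 (adjusted p = 0.00730), whereas leaving out any of the other 5 libraries lost the call (adjusted p up to 0.129).

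Red blood cell markers moved in the same direction as kcnn4. Their summed level was 280, 89.6 and 50.6 CPM in mutants and 24610, 30588 and 17197 CPM in controls. Of 13 tested, 12 were lower (edgeR), beside 2.42% of all genes tested, with a median log2 fold change of -6.48 over the 13. The beta-like globin gene HBE1 (ENSDARG00000097238) had no read in mutants 2 and 3. Among the mutants, 10 of the 13 tested markers were highest in library 1, 2 in library 2 and 1 in library 3, whereas kcnn4 was highest in library 2. In RNA of whole hearts, fewer cells of a type and less RNA per cell cannot be told apart, and the part of red blood cells in the kcnn4 values was not tested. The small-conductance channel gene kcnn1a, whose product senses calcium through calmodulin, had 6.47, 9.09 and 7.49 CPM in mutants and 17.9, 9.34 and 11.9 CPM in controls. Mutants lay below controls, narrowly so for mutant 2 and control 2, and the difference did not pass (log2 fold change -0.77, standard error 0.31, edgeR adjusted p = 0.175). The big-conductance channel gene KCNMA1 had a log2 fold change of 0.09 with an interval of -2.16 to 2.34.

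Inward rectifiers hold the resting potential, and 4 of their 20 members were tested. None passed (edgeR, with 2 unadjusted p under 0.05), while DESeq2 called KCNJ8. KCNJ8, a pore subunit of ATP-sensitive channels known in mammals from vascular smooth muscle and pericytes, had 4.80, 1.23 and 1.34 CPM in mutants and 0.732, 0.123 and 0 CPM in controls. Mutant 1 was far above the rest, and no library overlapped. With 6, 1 and 0 reads in controls, KCNJ8 passed the read filter through the mutants. Its log2 fold change was 3.03 (standard error 1.00), with an adjusted p of 0.102 in edgeR and 0.0358 in DESeq2. The other pore subunit, kcnj11, had 14.6, 7.97 and 16.9 CPM in mutants and 14.1, 8.60 and 14.0 CPM in controls, which overlapped (log2 fold change 0.11, 95% interval -0.65 to 0.86). KCNJ13, needed for adult stripe patterning in zebrafish, had 21.8, 9.65 and 6.82 CPM in mutants and 7.32, 6.76 and 5.15 CPM in controls. Mutant 1 stood out and mutant 3 overlapped control 1 (log2 fold change 0.99, edgeR adjusted p = 0.207). The strong rectifier gene kcnj14 had 7.03, 11.7 and 19.5 CPM in mutants and 31.7, 6.51 and 18.5 CPM in controls, with both extremes in controls (log2 fold change -0.57, standard error 0.54, edgeR adjusted p = 0.591).

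Of 15 calcium channel genes tested, 2 passed, both lower (13.3%, beside 9.43% of all genes called and 2.42% called lower). Both encode subunits of the skeletal muscle L-type channel. CACNB1 (ENSDARG00000002167), its beta subunit, had 7.58, 10.9 and 12.4 CPM in mutants and 29.9, 18.6 and 27.3 CPM in controls. All mutants lay below all controls. It averaged 10.3 ± 2.46 CPM in mutants and 25.2 ± 5.93 CPM in controls (SD, n = 3 each) and fell by 1.29 on the log2 scale (standard error 0.27, 95% interval of the change -1.91 to -0.67, edgeR adjusted p = 0.0208). The call was lost without control 1, control 3, mutant 1 or mutant 2 (adjusted p up to 0.0974). CACNA1S (ENSDARG00000029457), its pore-forming subunit and the voltage sensor of skeletal muscle contraction, had 3.90, 5.27 and 5.57 CPM in mutants and 13.7, 8.48 and 11.4 CPM in controls. No library overlapped. CACNA1S fell by 1.18 on the log2 scale (standard error 0.31, 95% interval of the change -1.88 to -0.49, edgeR adjusted p = 0.0441), and the call held without control 2 and was lost without any 1 of the other 5 libraries (adjusted p up to 0.153). It was also lost with scaling by library size alone (adjusted p = 0.0962). The other gene listed as CACNA1S (ENSDARG00000042552) was not tested, with 3, 9 and 6 reads in mutants and 8, 13 and 6 reads in controls.

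Skeletal muscle markers were also low in mutants. Their summed level was 2496, 6576 and 5149 CPM in mutants and 9483, 12251 and 9142 CPM in controls. All 20 tested had a negative log2 fold change, from -1.88 to -0.02, with a median of -0.79. In edgeR 6 of the 20 had an unadjusted p under 0.05, all lower, beside 1526 of all 16707 genes tested. Of the 20 markers 1 passed, the actin gene ACTA1 (ENSDARG00000036371), which fell by 1.88 (edgeR adjusted p = 0.0493), beside 2.42% of all genes called lower. In 5 of the 20 all mutant libraries lay below all control libraries, beside 12.9% of all genes tested. Hearts of fish also express ACTA1 and the creatine kinase gene ckma, which give most of that sum. A single member of the list with a low level, MYOD1, encodes the transcription factor that defines skeletal myoblasts. It was at 1.45, 1.57 and 1.34 CPM in mutants and 1.097, 3.07 and 0.251 CPM in controls. MYOD1 overlapped between genotypes. It is 1 member picked from the list and does not stand for the other markers. The part of skeletal muscle in the CACNB1 and CACNA1S values was not tested.

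The main pore of the cardiac L-type channel is encoded by CACNA1C (ENSDARG00000008398), mutated in zebrafish island beat. It had 60.3, 93.6 and 104 CPM in mutants and 228, 45.5 and 124 CPM in controls. The controls spanned the whole mutant range, with control 1 above and control 2 below every mutant. The log2 fold change was -0.62 (standard error 0.48, 95% interval -1.72 to 0.47, edgeR adjusted p = 0.494), and without control 1 it was 0.018. CACNA1G, the pore of a T-type channel that opens at low voltage, had 109.9, 78.7 and 162 CPM in mutants and 143, 62.6 and 99.4 CPM in controls (log2 fold change 0.20, 95% interval -0.57 to 0.97, edgeR adjusted p = 0.790). Its levels overlapped, again with control 2 lowest of all. The other 4 tested pore-forming genes, CACNA1A, CACNA1B (ENSDARG00000021735), cacna1aa and cacna1ib, had log2 fold changes of -0.78, 1.15, -0.12 and -0.51, each with overlapping libraries.

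The auxiliary calcium channel subunits of heart overlapped between genotypes. The alpha2delta gene cacna2d1a, whose product raises the channel's surface density, had 41.9, 48.6 and 52.1 CPM in mutants and 79.6, 31.6 and 53.3 CPM in controls (log2 fold change -0.21, 95% interval -0.89 to 0.48). The beta subunit gene cacnb2a, the main cardiac form, had 11.2, 10.5 and 16.3 CPM in mutants and 19.6, 12.8 and 19.9 CPM in controls (log2 fold change -0.46, standard error 0.28, edgeR adjusted p = 0.364). In cacna2d1a controls 1 and 3 lay above and control 2 below all mutants, and without control 1 the log2 fold change was 0.16. In cacnb2a the controls were centred higher, but mutant 3 exceeded control 2. The weakly covered cacna2d2a had 2.12, 2.47 and 2.40 CPM in mutants and 5.12, 1.598 and 1.01 CPM in controls (log2 fold change -0.15). CACNB4 had 8.70, 7.85 and 11.04 CPM in mutants and 9.27, 2.21 and 7.67 CPM in controls (log2 fold change 0.53). Neither of the 2 tested gamma subunit genes passed, with log2 fold changes of -0.01 for CACNG8 and 0.31 for cacng6b.

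**Figure D2:**
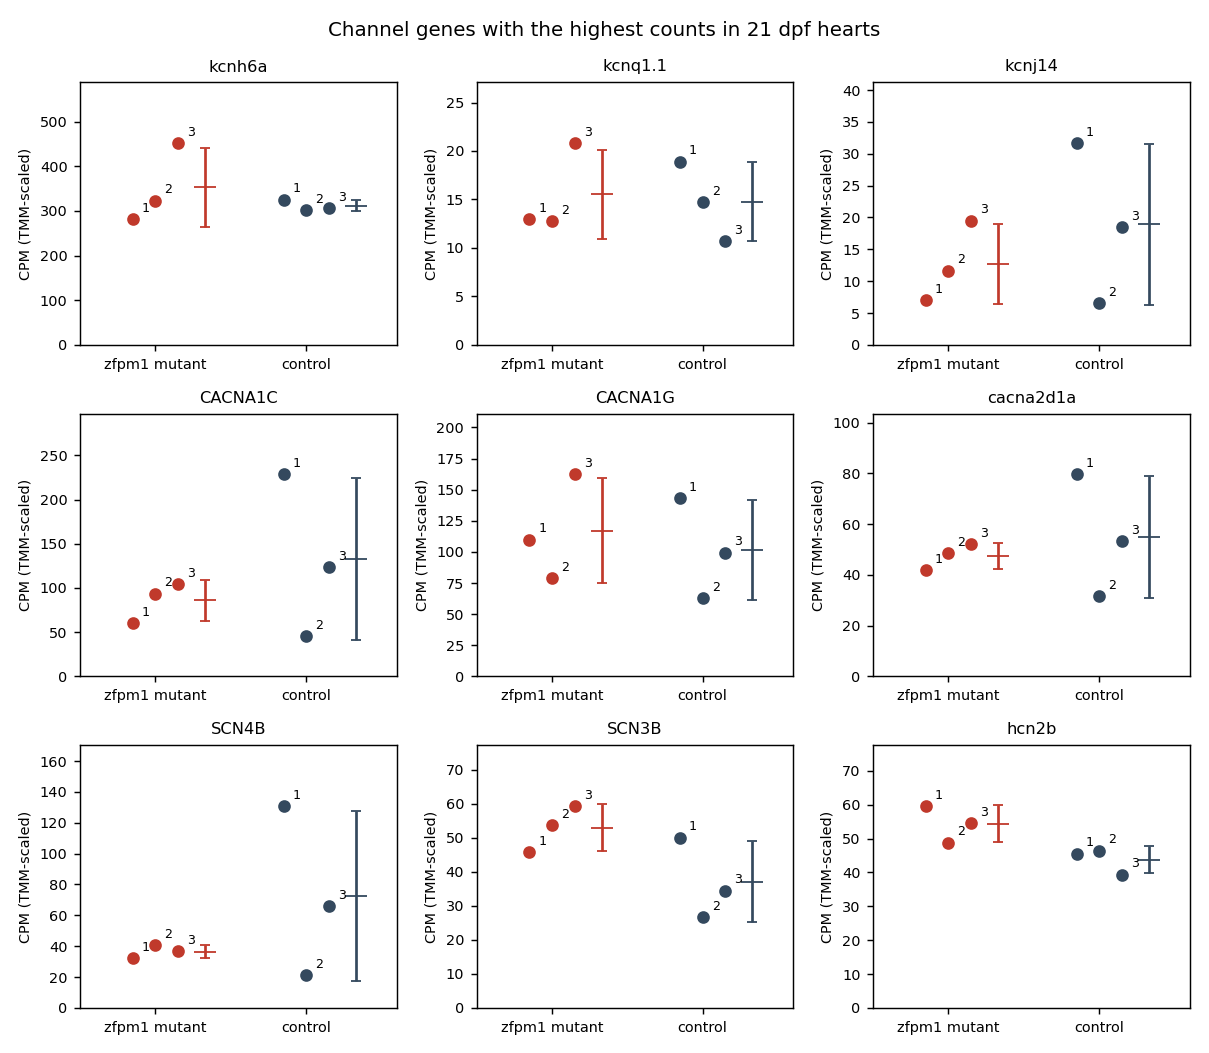
Level in CPM (TMM-scaled) of 9 well covered potassium, calcium, sodium and pacemaker channel genes, with mutant libraries left and control libraries right, 1 numbered point per library and the mean with its SD. Mutant and control libraries overlap in every panel except hcn2b, and in CACNA1C and SCN4B control 1 lies above and control 2 below all mutants.

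Of the 12 sodium channel genes, 3 pore-forming and 4 beta subunit genes were tested. SCN4B (ENSDARG00000099031), a beta subunit linked in mammals to resurgent sodium current, had 32.2, 40.5 and 36.8 CPM in mutants and 131, 21.0 and 66.0 CPM in controls. The mutants were close together and lay between controls 2 and 3. The log2 fold change was -0.99 (standard error 0.51, 95% interval -2.16 to 0.17, edgeR adjusted p = 0.286), and it moved with the controls kept. Without control 2 it was -1.44 (adjusted p = 0.0336), without control 1 it was -0.26 (adjusted p = 0.755) and without both libraries numbered 1 it was -0.17 (adjusted p = 0.879). SCN3B, a further beta subunit, had 45.7, 53.7 and 59.3 CPM in mutants and 49.99, 26.7 and 34.4 CPM in controls. Only control 1 overlapped the mutants (log2 fold change 0.52, standard error 0.25, edgeR adjusted p = 0.255), and without both libraries numbered 1 the change was 0.90 (adjusted p = 0.0389). Without control 1 alone it was 0.78 (adjusted p = 0.0851), and without control 2 it was 0.32 (adjusted p = 0.503). SCN2B, also a beta subunit gene, had 1.90, 2.47 and 3.17 CPM in mutants and 1.71, 2.21 and 1.63 CPM in controls, which overlapped (log2 fold change 0.44, edgeR adjusted p = 0.622).

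SCN10A, a pore-forming sodium channel gene, had 9.59, 13.9 and 24.9 CPM in mutants and 25.1, 3.56 and 16.0 CPM in controls. Controls again spanned the mutants, and the log2 fold change of 0.12 had an interval of -1.23 to 1.46. The skeletal muscle type gene scn4ab had 25.4, 7.63 and 11.3 CPM in mutants and 18.9, 13.9 and 9.55 CPM in controls, with mutants at both ends (log2 fold change 0.07, 95% interval -0.93 to 1.06). The brain type gene scn1lab had 2.79, 1.23 and 2.11 CPM in mutants and 1.95, 1.84 and 3.52 CPM in controls (log2 fold change -0.25).

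Of the pacemaker channels, hcn2b (ENSDARG00000061665) held most reads. It had 59.7, 48.8 and 54.6 CPM in mutants and 45.6, 46.5 and 39.3 CPM in controls. All mutants lay above all controls, by a small margin between mutant 2 and control 2. The gene averaged 54.4 ± 5.44 CPM in mutants and 43.8 ± 3.88 CPM in controls (SD, n = 3 each), and the log2 fold change of 0.31 (standard error 0.18, 95% interval -0.09 to 0.71) did not pass (edgeR adjusted p = 0.331). HCN4, whose product is the main pacemaker channel of the mammalian sinoatrial node, had 2.12, 0.785 and 1.82 CPM in mutants and 4.999, 0.615 and 1.63 CPM in controls. These overlapped, with control 1 highest and control 2 lowest (log2 fold change -0.61, 95% interval -2.30 to 1.08, edgeR adjusted p = 0.691). The zebrafish gene hcn5 had too few reads for a test, with 11, 2 and 1 reads in mutants and 7, 6 and 0 reads in controls.

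The control libraries differed from each other in a way shared by many channel genes. In 24 of the 54 tested members (44.4%) the controls ranked 1, 3, 2 by level, an order found in 24.4% of all genes tested. Control 2 was the highest of all 6 libraries in 1 of the 54 members (1.85%), against 23.4% of all genes tested. Among genes at 10 CPM or more, the ratio of control 1 to control 2 had a median of 1.64 over 17 channel genes and of 0.967 over 9783 genes. It exceeded 2-fold in 6 of the 17 (35.3%) and in 7.40% of all such genes. The 6 were SCN10A at 7.05, SCN4B at 6.23, CACNA1C at 5.02, kcnj14 at 4.87, cacna2d1a at 2.52 and CACNA1G at 2.29. These are values of single libraries and carry no replicate error.

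Heart muscle markers did not all share 1 order among the controls. Of the 20 tested, 8 ranked the controls 1, 3, 2, beside 44.4% of tested channel genes and 24.4% of all genes tested. Control 1 was highest of the controls in 12 of the 20, control 2 in 7 and control 3 in 1. Control 2 was lowest of the controls in 8. The values of 4 genes, chosen after they were seen, are given here. The titin gene TTN (ENSDARG00000028213) had 866, 1342 and 1762 CPM in mutants and 2778, 1074 and 2028 CPM in controls. The ryanodine receptor gene RYR2 (ENSDARG00000003706), the calcium release channel of heart muscle, had 317, 467 and 615 CPM in mutants and 1063, 387 and 668 CPM in controls. MYL7, the atrial light chain that marks all zebrafish heart muscle, had 5182, 8513 and 7782 CPM in mutants and 12791, 12360 and 10775 CPM in controls. The myosin light chain gene cmlc1 had 2965, 5533 and 5693 CPM in mutants and 7486, 10915 and 7608 CPM in controls. Among the controls, TTN and RYR2 were thus lowest in control 2, MYL7 in control 2 was close to control 1, and cmlc1 was highest in control 2. What sets the difference between controls was not tested.

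**Figure D3:**
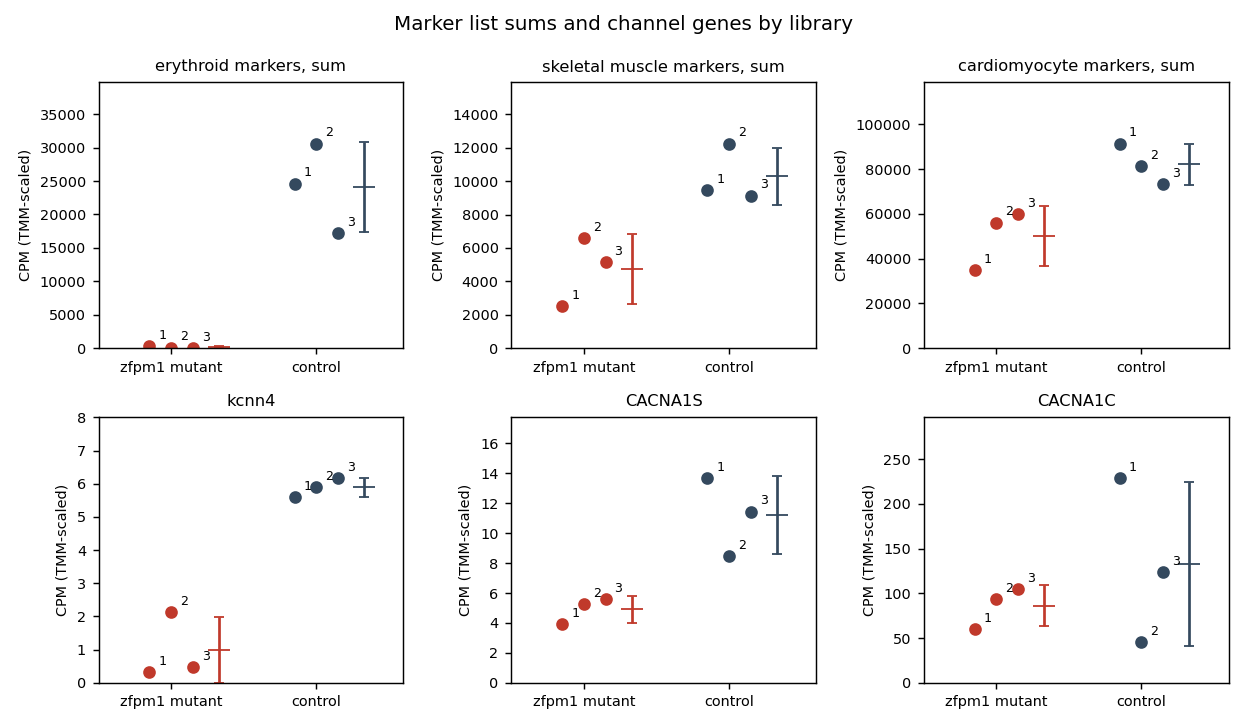
Summed level in CPM of red blood cell, skeletal muscle and heart muscle markers above, and of the channel genes kcnn4, CACNA1S and CACNA1C below, with mutant libraries left and control libraries right and 1 numbered point per library. All 3 marker sums are lower in each mutant than in each control, as are kcnn4 and CACNA1S, while CACNA1C overlaps.

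Over the 48 tested genes that were not called, the 95% interval of the log2 fold change had a median half-width of 1.14. For 10 of them, including kcnh6a, kcnq1.1, kcnj11, CACNA1G, cacna2d1a and hcn2b, the interval excluded a 2-fold difference in either direction. For the other 38, among them CACNA1C, SCN4B, SCN10A and HCN4, a 2-fold difference was within the interval.

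The 64 members that were not tested had 10 to 66 reads over the 6 libraries, with a median of 22.5. Mutant reads exceeded control reads without overlap, scaled to library size, in 9 of them (14.1%) and were below in 3 (4.69%). Among all 4756 untested genes with at least 10 reads these shares were 12.4% and 4.50%. Neither kcnd1, a channel of the transient outward current, nor a CACNA1B gene (ENSDARG00000079295), a neuronal calcium channel, had a read in controls. With 7, 3 and 6 reads in mutants, kcnd1 was 4.58-fold above a level of 3 reads over the control group. CACNA1B, with 6, 6 and 3 reads, was 4.29-fold above that level. These ratios allow for counting error in the control zeros only. Counting error of the mutant reads and the spread between libraries are not covered. Both genes reached the minimum of 10 reads through the mutants alone, so the ratios partly follow from the rule. The inward rectifier gene KCNJ5, whose product forms the acetylcholine-gated channel of atrium, had 20, 6 and 15 reads in mutants and 0, 2 and 5 reads in controls. The inward rectifier gene kcnj12a had 0, 2 and 0 reads in mutants and 16, 3 and 15 reads in controls. The leak channel gene KCNK1 (ENSDARG00000017254) had 6, 8 and 14 reads in mutants and 0, 1 and 0 reads in controls. These 3 genes did not overlap between genotypes and had no test.

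Reads of some untested genes came largely from 1 library. The T-type channel gene cacna1ha had 35, 3 and 0 reads in mutants and 8, 8 and 5 reads in controls. The brain sodium channel gene scn1laa had 20, 1 and 3 reads in mutants and 1, 0 and 0 reads in controls. In both, mutant 1 held most reads. The gamma subunit gene CACNG4 had 1, 0 and 0 reads in mutants and 0, 0 and 9 reads in controls, nearly all in control 3. Over the 64 untested members, mutant 1 was the highest library in 16 (25.0%, against 28.3% of all untested genes) and control 3 in 18 (28.1%, against 15.7%). Markers of neurons summed to 85.1, 38.6 and 48.1 CPM in mutants and 49.7, 39.3 and 65.4 CPM in controls. None of 13 tested passed or had an unadjusted p under 0.05 (edgeR), beside 3948 of all 16707 genes tested with such a p. Among the neuron markers ELAVL3, a neuronal RNA-binding protein gene, was highest in mutant 1 with 5.02 CPM. The part of nerve tissue in these reads was not tested.

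Genes that act on excitation outside the symbol rule, such as pumps, exchangers, calcium release channels, gap junctions and channel regulators, were read from the same fit. Of 58 tested, 7 passed (12.1%, beside 9.43% of all genes), 4 higher and 3 lower, and their median log2 fold change was -0.19. The muscle caveolin gene cav3, whose product scaffolds channels in the membrane, had 29.6, 41.2 and 43.2 CPM in mutants and 71.1, 89.1 and 72.8 CPM in controls. It fell by 1.03 on the log2 scale (standard error 0.21, edgeR adjusted p = 0.0163), with no overlap between libraries. RRAD, a small GTPase that inhibits L-type channels through their beta subunit, had 87.7, 112 and 117 CPM in mutants and 224, 209 and 162 CPM in controls. RRAD fell by 0.91 (standard error 0.21, edgeR adjusted p = 0.0268), a call lost narrowly without any 1 library (adjusted p 0.0519 to 0.0736). DPP6 (ENSDARG00000076826), an auxiliary subunit of the transient outward channel, had 9.59, 13.9 and 16.2 CPM in mutants and 35.6, 19.2 and 30.5 CPM in controls, and fell (95% interval of the log2 change -1.77 to -0.43, edgeR adjusted p = 0.0496).

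The sodium pump gene atp1a3a had 29.4, 19.3 and 18.5 CPM in mutants and 5.61, 11.1 and 9.55 CPM in controls, and rose by 1.36 on the log2 scale (standard error 0.31, edgeR adjusted p = 0.0288). The calcium-activated cation channel gene trpm4a had 14.3, 24.5 and 3.94 CPM in mutants and 0.366, 2.09 and 2.39 CPM in controls, and rose by 3.13 (standard error 0.75, edgeR adjusted p = 0.0332). Neither gene overlapped between genotypes, although mutant 3 came close to the controls in trpm4a. The inhibitory G protein gene GNAI2 (ENSDARG00000017294) had 10.4, 14.9 and 7.68 CPM in mutants and 4.27, 4.06 and 4.65 CPM in controls, and rose by 1.34 (edgeR adjusted p = 0.0360). The kinase gene sgk1, whose product increases the activity of several channels, had 227, 98.4 and 100.1 CPM in mutants and 52.4, 62.8 and 59.6 CPM in controls, and rose by 1.28 (edgeR adjusted p = 0.0409). Mutant 1 was far above the other mutants in sgk1. Calls of RRAD, DPP6, GNAI2, trpm4a, atp1a3a, sgk1 and cav3 were each lost without at least 1 of the 6 libraries (adjusted p up to 0.174 for DPP6). Without both libraries numbered 1, cav3 (adjusted p = 0.0209) and sgk1 (adjusted p = 0.0452) were still past the threshold among these 7 (edgeR), at log2 fold changes of -0.92 and 0.71.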

How the data were processed

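Whole-heart and embryo RNA was reverse transcribed after poly(A) enrichment and sequenced with an Illumina TruSeq RNA kit, per the labels' protocols. The deposited values are raw counts of reads per Ensembl gene; the submitters' processing notes name bcl2fastq, FastQC 0.11.5, TopHat2 2.2.1, Bowtie2 2.2.3, HTSeq 0.6.1p1 and the GRCz10 build. No source used here states the strand setting or annotation release, so genes that overlap or lie antisense, and near-identical copies, could share or lose reads. Between 42.4% and 48.8% of the counts of a heart file lay in the line for no feature, 11.1% to 21.8% in that for multiple alignments and 0.601% to 1.08% in that for ambiguous reads, and these lines were left out. Symbols came from an Ensembl name table, which named 26121 of the 31953 identifiers. Among members, 9 symbols are shared by 21 identifiers, which are told apart by identifier.

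The 6 heart libraries were compared, 3 zfpm1 mutants over 3 controls, with edgeR 4.0.16 in R 4.3.3 (TMM scaling, filterByExpr with a minimum count of 10, quasi-likelihood F test, group as the only term). P-values were adjusted by Benjamini-Hochberg over all 16707 tested genes, and a gene was called at an adjusted p under 0.05. A positive log2 fold change means higher in mutants. Levels are CPM computed with TMM-scaled library sizes, with TMM factors of 0.845 to 1.18. A count of 0 was bounded at 3 reads over the group. Standard errors of edgeR fold changes were derived from the fold change and its F statistic. Intervals are 95%, built from these standard errors with the t distribution, so both are approximate. PCR reads without molecular identifiers are not independent molecules. The text names every called member, the 4 best covered tested members of each class, known cardiac channel genes with at least 2 CPM, zfpm1 and the called partners; the other members named (such as KCNQ5, KCNJ8, KCNG4 and the untested genes) were chosen after their values were seen. Some members are counted but not reported singly here. The members and lists were chosen with earlier results of these data known.

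Alternatives were DESeq2 1.42.0 (its size factors in edgeR, and its own Wald test), library size only, no filter, a filter of 1 CPM in 3 libraries, a term for the replicate number, leaving out each library, and leaving out both libraries numbered 1. The edgeR test was run on simulated data with 3 libraries per group. It recovered 6% of 100 genes changed 2-fold and 69% of 100 genes changed 4-fold, with 5 false calls among 80. The changed genes were drawn only from genes with a mean above 2 CPM. These rates therefore do not cover weaker members such as the called KCNK5 gene, with a mean of 0.888 CPM. Most simulated 2-fold changes were thus missed. No other gene of the 16330 tested in the simulation was changed, and 80 were called, beside 1576 of 16707 in the reported fit. Adjustment over all genes is stricter where fewer genes differ, so the simulated recovery can be lower than that of the reported fit.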

Additional observations from a re-analysis of the deposited data

How the results depend on the processing

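The reported fit called 6 of 54 tested channel genes (3 higher, 3 lower), beside 9.43% of all genes. Of the alternatives, DESeq2 called 7 of 54 (13.5% of all genes called under the same setting). Library size only called 7 of 54 (11.2%) and the DESeq2 size factors 6 of 54 (9.36%). The number tested changed with the filter. No filter called 5 of 118 (6.97%) and the 1 CPM filter 6 of 58 (9.33%). Scaling by library size alone moved the median log2 fold change of all genes to 0.25 and the share of calls that were higher to 87.3%, against 74.4% with TMM, and called 5 channel genes higher. Under it the class difference, mutant minus control, was 152.6 CPM for potassium and 19.5 CPM for pacemaker genes, against 65.5 and 9.91 CPM with TMM, and -8.22 CPM for calcium and 3.59 CPM for sodium genes, against -61.3 and -18.1 CPM with TMM. Leaving out 1 library called 3.46% to 7.48% of all genes and 1 to 4 channel genes of 59 to 63 tested, 1 to 2 higher and 0 to 3 lower. Where 0 were lower (without control 1, control 3 or mutant 1), 3 to 5 were lower at an unadjusted p under 0.05 in edgeR. Partner genes, 7 in all, were 12 with DESeq2 and 0 to 5 with 1 library left out (0 without control 3, where 3.46% of all genes were called, with 13 at an unadjusted p under 0.05 in edgeR). Without both libraries numbered 1, edgeR called 7.42% of all genes and 2 channel genes of 53 tested, 0 of them lower (3 at an unadjusted p under 0.05), and 4 partners. Deviations from the genotype mean, over all tested genes, had correlations of 0.11, 0.24 and -0.07 between same-numbered libraries. Mutants 1 and 2 correlated best with the control of their own number, and mutant 3 with control 1 (0.14). Deviations within a genotype sum to 0, so these values cannot settle whether the numbers pair libraries, and the reported fit has no pairing term. A replicate block called 8.84% of all genes, 3 channel genes (KCNH4, CACNB1 and kcnn4), 1 of them higher, and 2 partners. The sign of some uncalled genes turned. Without both libraries numbered 1 the log2 fold change was 0.23 for CACNA1C, 0.26 for cacna2d1a, 0.23 for HCN4, 0.32 for kcnj14, -0.29 for scn4ab and 0.91 for cacna2d2a. With library size only it was 0.021 for cacna2d1a and 0.094 for cacna2d2a, and with the replicate block -0.044 for scn4ab and 0.14 for cacna2d2a. Leaving out 1 library gave -1.04 to 0.018 for CACNA1C, -0.12 to 0.52 for CACNA1G, -0.49 to 0.16 for cacna2d1a, -0.54 to 0.82 for cacna2d2a, -1.07 to 0.48 for HCN4, -0.050 to 0.33 for kcnh6a, -1.02 to 0.025 for kcnj14, -0.12 to 0.37 for kcnj11, -0.21 to 0.28 for kcnq1.1, -0.35 to 0.72 for SCN10A and -0.56 to 0.38 for scn4ab. The cause of these turns was not tested. Read depth limits the 64 untested members. The intervals of 38 tested genes reach a 2-fold difference, among them well covered genes with a wide spread between controls, such as CACNA1C and SCN4B.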
